A study of Mus musculus with 8 samples.

Results

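The EGF-family ligands and receptors were described across 4 groups of cultured mouse embryonic stem cells measured on 8 Affymetrix arrays, 2 per group. The members were 7 named genes, Ereg, Areg, Hbegf, Btc, Egfr, Erbb2 and Erbb3, and a probe set belonged to them when its single gene symbol in the platform annotation was one of these. This gave 15 probe sets of 6 genes, out of 18193 genes on the array with a probe set of a single symbol. Areg had no such probe set and was not analysed here. The values are log2 intensities after RMA normalization. A gene was tested where its brightest probe set exceeded the 40th percentile of the array on 2 or more arrays, a level of about log2 5.35. Of the 6 measured members 5 passed, and Btc did not.

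The study asked how altered expression of GTF2I, a transcription factor gene, changes gene expression in stem cells. The Wild-type group was labelled only as wild-type stem cells. The HPRTKO group carried the genotype HPRT -/-. The GTF2iTrap line was a gene trap derivative of AB2.2 cells with the genotype HPRT -/-:GTF2I +/-, so it shares the loss of HPRT with the HPRTKO group. The Gtf2i Mutant line was a gene-targeted derivative of R1 cells with the genotype Δexon2/+. All cultures received LIF and serum replacement and were grown on feeder cells, which can contribute RNA to an extract. The labels do not say whether cells were taken off the feeders before extraction. The labels name biological replicates but do not say that each came from its own culture; the p-values below cover the variation between these arrays, which may be technical. With 1 line per mutation and no batch in the labels, mutation, parental line and batch cannot be told apart.

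EGF-family ligands are made as membrane-anchored precursors that metalloproteases such as ADAM17 cut free. Epiregulin (Ereg), amphiregulin (Areg), heparin-binding EGF (Hbegf) and betacellulin (Btc) bind the receptor EGFR, and some of them also bind ERBB4. ERBB2 has no known soluble ligand and acts as a partner of the other receptors, while ERBB3 binds neuregulins and has very weak kinase activity of its own. Bound receptors pair and signal through the RAS-MAPK cascade, which induces immediate early genes and its own inhibitors. Fibroblasts, the cells used as feeders, are a well known source and target of these ligands.

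All 10 stem cell markers, such as Pou5f1, lay above the filter level on every array, so the labelled cell type was borne out. The 16 feeder fibroblast markers, such as Col1a2, Col3a1 and Lox, differed between groups far more. Their summed linear intensity was 128000 to 129000 in Wild-type, 109000 to 110000 in the GTF2iTrap line, 96700 to 98500 in the Gtf2i Mutant line, and 4490 to 4630 in HPRTKO, where 15 of the 16 were still above the filter level. In these extracts of whole cultures, fewer cells of a type and less RNA per cell cannot be told apart. Hprt averaged 12.08 in Wild-type, 12.25 in the Gtf2i Mutant line, 10.04 in HPRTKO and 10.74 in the GTF2iTrap line, and was thus lower in both groups labelled HPRT -/-. Gtf2i averaged 10.12 in Wild-type and 10.48 in the Gtf2i Mutant line, against 10.9 in HPRTKO and 10.09 in the GTF2iTrap line. Where its probes lie relative to the deleted exon is not known here, so this does not check the Δexon2/+ label.

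Epiregulin had the widest range of the members. Ereg read 11.62 and 11.59 in Wild-type, 10.09 and 10.17 in the GTF2iTrap line, 9.08 and 8.86 in the Gtf2i Mutant line, and 4.51 and 4.61 in HPRTKO. The 4 groups did not overlap, and the HPRTKO arrays lay below the filter level, so the size of any difference from them depends on the floor of the array. Between pairs of groups, 73.4% to 85.7% of all genes tested also did not overlap, so this is common here. Hbegf, a ligand that also binds heparan sulfate, read 11.67 and 11.68 in Wild-type, 9.49 and 9.47 in the GTF2iTrap line, 9.20 and 9.19 in the Gtf2i Mutant line, and 8.12 and 8.14 in HPRTKO. It followed the same order of groups, again without overlap, and stayed above the filter level everywhere. The dimmer of its 2 probe sets gave the same order, from 10.80 and 10.76 in Wild-type to 7.75 and 7.76 in HPRTKO. Both probe sets of Btc, the betacellulin gene, were below the filter level on all 8 arrays, with group means of 4.96 to 5.17 for the brighter one, so no level above the filter was detectable for this ligand.

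**Figure D1:**
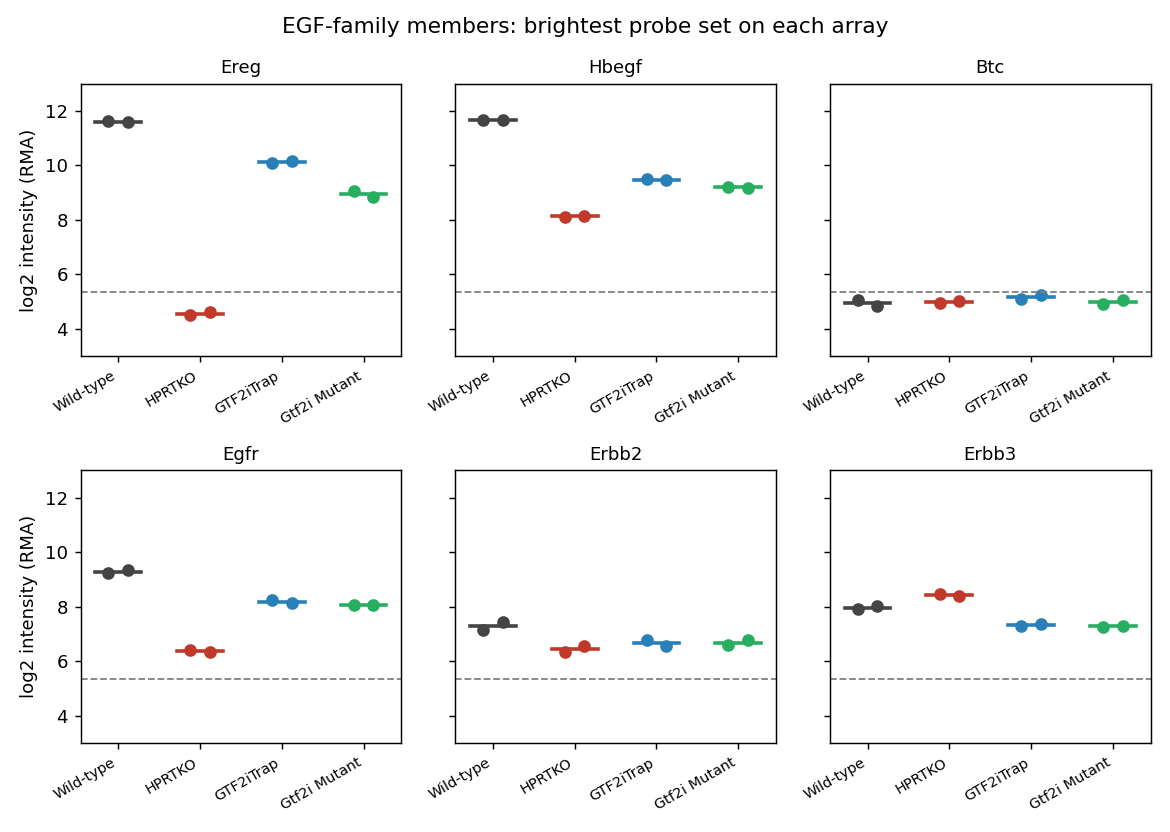
Log2 intensity (vertical axis) of the brightest probe set of each of the 6 measured members in the 4 groups; points are single arrays, short lines group means, and the dashed line the mean filter level of 5.35. Ereg, Hbegf and Egfr are highest in Wild-type and lowest in HPRTKO, Erbb3 is highest in HPRTKO, and Btc lies under the dashed line.

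Among the receptors, Egfr, which binds all the ligands of this set, read 9.23 and 9.34 in Wild-type, 8.23 and 8.15 in the GTF2iTrap line, 8.06 and 8.05 in the Gtf2i Mutant line, and 6.42 and 6.33 in HPRTKO on its brightest probe set. Its groups fell in the same order as those of the ligands. Erbb2 read 7.15 and 7.44 in Wild-type, 6.78 and 6.55 in the GTF2iTrap line, 6.59 and 6.78 in the Gtf2i Mutant line, and 6.35 and 6.57 in HPRTKO. Wild-type stood above all other groups, whose values lay close together. Erbb3 read 7.91 and 8.03 in Wild-type, 7.29 and 7.36 in the GTF2iTrap line, 7.27 and 7.31 in the Gtf2i Mutant line, and 8.47 and 8.40 in HPRTKO. It was the one tested member that was highest in HPRTKO. Its second probe set was below the filter level on all arrays; averaged with it, Erbb3 differed from Wild-type by -0.30 in the Gtf2i Mutant line (adjusted p = 0.0119) and by -0.18 in the GTF2iTrap line, which no longer passed (adjusted p = 0.0968).

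Of the 5 tested members, Egfr and Erbb2 had a promoter window in the RefSeq table used (GRCm38.p6), as did Areg and Btc, which gave no tested values. The 250 bases before the transcription start of Egfr (chr11:16751953-16752202, plus strand) and Erbb2 (chr11:98412234-98412483, plus strand) are shown because both receptor genes were lower in every other line than in Wild-type. Each reads 5′ to 3′, and capitals mark a GC box on the reverse strand.
Egfr: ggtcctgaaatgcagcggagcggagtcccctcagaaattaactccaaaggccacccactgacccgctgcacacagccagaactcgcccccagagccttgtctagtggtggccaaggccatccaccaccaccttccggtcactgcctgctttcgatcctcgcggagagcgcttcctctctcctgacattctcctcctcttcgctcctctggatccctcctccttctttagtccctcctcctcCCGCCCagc
Erbb2: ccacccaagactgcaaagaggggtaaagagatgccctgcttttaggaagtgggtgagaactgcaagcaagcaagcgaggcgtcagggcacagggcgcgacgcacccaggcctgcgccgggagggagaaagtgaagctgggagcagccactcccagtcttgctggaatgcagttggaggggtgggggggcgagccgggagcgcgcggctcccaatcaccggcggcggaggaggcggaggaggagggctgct
The GC box (GGGCGG, both strands) occurred once in the Egfr window, next to the start, and not in the Erbb2 window. It was present in 32.7% of the 32851 windows of this length. Neither window held the AP-1 motif TGACTCA (4.46% of windows), the TATA box TATAAA (12.4%), the E-box CACGTG (6.02%) or the CArG box (1.47%). The Egfr window was 60.8% GC and the Erbb2 window 66.0%, against a median of 52.4% over all windows.

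In the Gtf2i Mutant line all 5 tested members were lower than in Wild-type. Both ligands fell most, Ereg by 2.63 ± 0.08 (SE) on the log2 scale (limma, adjusted p = 3.85e-06) and Hbegf by 2.48 ± 0.05 (adjusted p = 8.34e-07), which is 6.19-fold and 5.59-fold lower. Among the falls of all 13819 genes tested Ereg had rank 15 and Hbegf rank 23. The receptors fell less: Egfr by 1.23 ± 0.06 (adjusted p = 1.77e-05), Erbb3 by 0.68 ± 0.06 (adjusted p = 0.000161) and Erbb2 by 0.61 ± 0.14 (adjusted p = 0.00799). Of all genes tested 55.5% were called at adjusted p below 0.05, and 23.1% were called lower; calls that were also at least 2-fold lower, as for Ereg, Hbegf and Egfr, made up 2.47%. The median difference of the 5 members was -1.23, against 0.03 over all genes. The feeder markers were lower too, 15 of 16 called, with a median of -0.49 and a lowest value of -0.94. Ereg and Hbegf thus fell by more than any of the 16 feeder markers. Egfr did so on its brightest probe set but not averaged over its probe sets, where it was at -0.50. The 8 primitive endoderm markers, such as Dab2, Lama1 and Gata6, were lower as well, 7 called, with a median of -0.79. The part of feeder or endoderm RNA in these differences was not tested.

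In the GTF2iTrap line the same 5 members were lower than in Wild-type, and Hbegf, not Ereg, fell most. Hbegf fell by 2.20 ± 0.05 (adjusted p = 1.67e-06, rank 20 among the falls) and Ereg by 1.47 ± 0.08 (adjusted p = 3.91e-05, rank 96). Egfr fell by 1.10 ± 0.06 (adjusted p = 4.06e-05), Erbb3 by 0.64 ± 0.06 (adjusted p = 0.000367) and Erbb2 by 0.63 ± 0.14 (adjusted p = 0.00997). In this comparison 41.1% of genes were called, 14.6% as lower and 1.87% as at least 2-fold lower. Erbb2 rests on single arrays here: without the second Wild-type array it was -0.48 with an adjusted p of 0.0564, and without the second GTF2iTrap array -0.51 with 0.0622. The feeder markers had a median of -0.12, with 3 higher, 6 lower and a lowest value of -1.22, so Ereg and Hbegf fell by more than any of them. Of the primitive endoderm markers 5 were lower and 2 higher, with a median of -0.42, and their part was not tested. This comparison and that of the Gtf2i Mutant line share the Wild-type arrays.

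Set directly against each other, both lines with a mutated Gtf2i differed in the ligands. Ereg was lower in the Gtf2i Mutant line than in the GTF2iTrap line by a log2 difference of -1.16 ± 0.08 (adjusted p = 7.38e-05), and Hbegf by -0.29 ± 0.05 (adjusted p = 0.00203). On their brightest probe sets none of the 3 receptors passed the test: Egfr differed by -0.14 (95% interval -0.28 to 0.01, adjusted p = 0.112), Erbb2 by 0.02 (-0.30 to 0.34, adjusted p = 0.917) and Erbb3 by -0.03 (-0.18 to 0.12, adjusted p = 0.686). With cyclic loess scaling Egfr passed, at -0.17 and an adjusted p of 0.0387, and 2 of its other probe sets were called lower, 1460420_a_at at -0.32 (adjusted p = 0.00323) and 1424932_at at -0.40 (adjusted p = 0.0472). The call rate over all genes was 49.2%, so 2 of 5 members is not a high count. Feeder markers had a median of -0.29, with 3 higher and 9 lower.

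**Figure D2:**
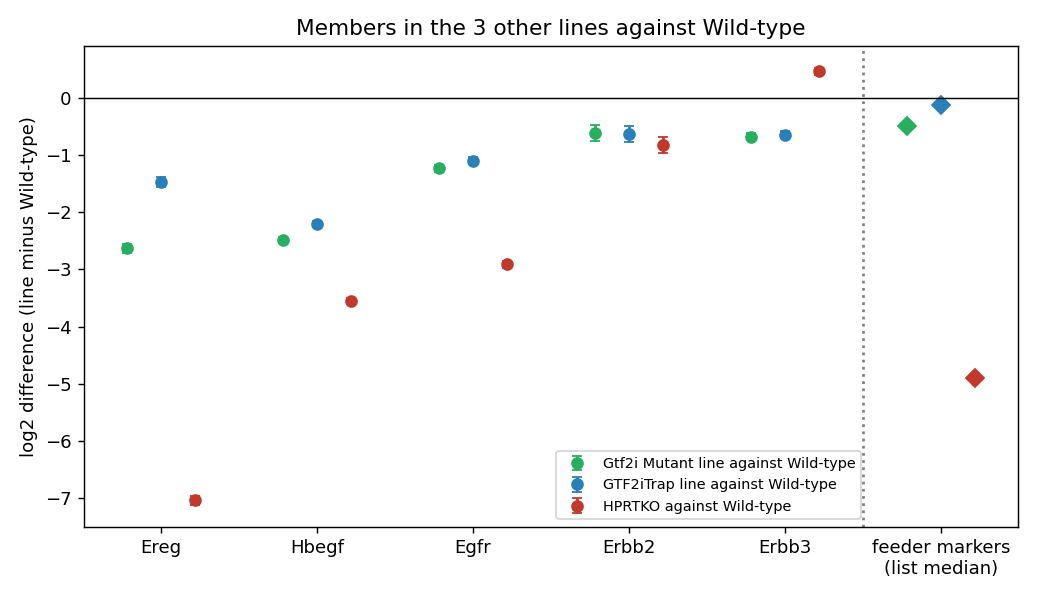
Log2 difference from Wild-type (vertical axis) of the 5 tested members in the Gtf2i Mutant line, the GTF2iTrap line and HPRTKO; points are limma estimates and bars their standard error. Diamonds are the median of the 16 feeder fibroblast markers, and Ereg reaches from -1.47 to -7.04 while Erbb3 in HPRTKO is the single point above 0.

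HPRTKO differed from Wild-type in all 5 tested members, 4 lower and 1 higher. Ereg fell by 7.04 ± 0.08 (adjusted p = 4.6e-09), Hbegf by 3.55 ± 0.05 (adjusted p = 6.17e-09), Egfr by 2.91 ± 0.06 (adjusted p = 4.24e-08) and Erbb2 by 0.83 ± 0.14 (adjusted p = 0.0011). Erbb3 was higher by 0.47 ± 0.06 (adjusted p = 0.00039). In this comparison 71.5% of genes were called, 25.1% as lower and 46.4% as higher, and the 16 feeder markers were all lower, with a median of -4.90 and a range of -7.23 to -3.48. Ereg and Hbegf lay inside that range and Egfr outside it, and how far feeder RNA sets these values was not tested. Beside the higher Erbb3, 5 of 8 primitive endoderm markers were higher and 1 lower (median 0.35), and 3 of 5 tested trophoblast markers, such as Tfap2c, were higher and none lower (median 0.86). Their part in the Erbb3 difference was not tested. With cyclic loess scaling, which moves the median of all genes in this comparison from 0.16 to 0.00, Erbb3 was at 0.26 (adjusted p = 0.00513).

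Against HPRTKO, the genotype that the GTF2iTrap line shares apart from its trap, 3 members were higher in the GTF2iTrap line. Ereg was higher by 5.57 ± 0.08 (adjusted p = 1.25e-08), Egfr by 1.82 ± 0.06 (adjusted p = 4.94e-07) and Hbegf by 1.35 ± 0.05 (adjusted p = 4.62e-07). Erbb3 was lower, at -1.11 ± 0.06 (adjusted p = 6.2e-06), and Erbb2 did not pass at 0.20 (95% interval -0.12 to 0.53, adjusted p = 0.222). Of all genes 68.4% were called and 26.6% were higher, and all 16 feeder markers were higher with a median of 4.62. The Gtf2i Mutant line against HPRTKO, which shares the HPRTKO arrays, gave 4.41 for Ereg, 1.68 for Egfr, 1.06 for Hbegf and -1.15 for Erbb3, all called, and 0.22 for Erbb2 (adjusted p = 0.194), where 61.2% of genes were called. On their brightest probe sets, Ereg, Hbegf and Egfr were thus lower than Wild-type and higher than HPRTKO in both lines with a mutated Gtf2i. Erbb3 was lower there than in either control. The difference of the Gtf2i Mutant line from Wild-type and that of the GTF2iTrap line from HPRTKO differed from each other for all 5 tested members, in a test that called 69.7% of genes. The value tested takes in the difference of HPRTKO from Wild-type given above. For Erbb3 the value tested, 0.44, did not pass with cyclic loess scaling (0.19, adjusted p = 0.0733) or averaged over its probe sets (0.23, adjusted p = 0.0909).

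The probe sets of Egfr did not give 1 answer. Of its 7 probe sets 6 were tested, and the brightest (1435888_at) and the one ranked 3 by brightness (1424932_at) changed alike: in the Gtf2i Mutant line against Wild-type they were at -1.23 and -1.50, and in HPRTKO at -2.91 and -2.75 (all called). The second (1460420_a_at) moved less, at -0.41 in the Gtf2i Mutant line and -0.53 in HPRTKO, and it was not called in the GTF2iTrap line (-0.09, adjusted p = 0.244). Those ranked 4 and 5 were within 0.23 of Wild-type in each line, with no call against it. The one ranked 6 was close to the filter level, with group means of 4.96 to 5.63, and was called lower than Wild-type at -0.39 in the Gtf2i Mutant line, -0.68 in the GTF2iTrap line and -0.56 in HPRTKO. The last was below it on all arrays. Against HPRTKO, 1435888_at and 1424932_at were higher in the Gtf2i Mutant line (1.68 and 1.25) and the GTF2iTrap line (1.82 and 1.66), all called. There 1460420_a_at was called higher only in the GTF2iTrap line (0.44). The one ranked 4 (1454313_at) was lower in the Gtf2i Mutant line (-0.36, limma adjusted p = 0.0438). It was not called in the GTF2iTrap line, nor were those ranked 5 and 6 in either line. Averaged over all 7 probe sets, the Egfr difference from Wild-type was -0.50 in the Gtf2i Mutant line, -0.37 in the GTF2iTrap line, and -0.89 in HPRTKO, all still called. Which transcripts each probe set reads was not examined here.

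**Figure D3:**
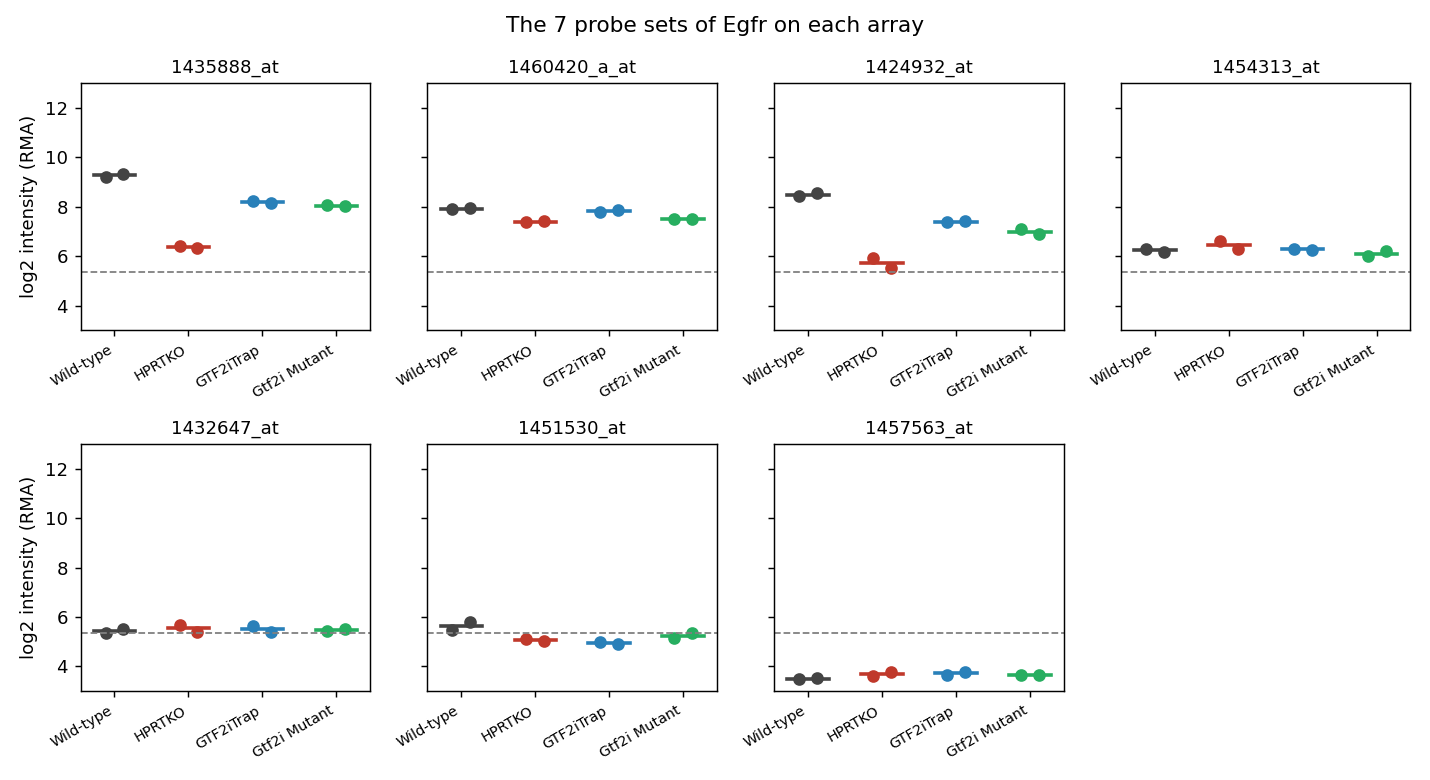
Log2 intensity (vertical axis) of each Egfr probe set in the 4 groups, with arrays as points, group means as short lines and the mean filter level dashed. The probe sets 1435888_at and 1424932_at separate the groups widely, with Wild-type highest and HPRTKO lowest. The probe set 1460420_a_at gives the same order over a narrower range. The others vary little or lie near or below the dashed line.

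Other genes of the pathway were taken from lists written from general knowledge. The other ligands and the receptor Erbb4 were mostly dim: 4 of 8 were tested. Nrg1, a neuregulin that binds ERBB3, was lower in the Gtf2i Mutant line (-0.61, adjusted p = 0.0107) and in HPRTKO (-0.87), and Nrg4, a neuregulin that binds ERBB4, was higher in both (0.59 and 1.37). None of the 4 was called in the GTF2iTrap line by limma. Tgfa, another EGFR ligand, was within 0.19 of Wild-type in each line and not called.

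Among 7 genes of ligand shedding and trafficking, 5 were lower and none higher in the Gtf2i Mutant line, 3 lower and 2 higher in the GTF2iTrap line, and 6 lower and 1 higher in HPRTKO. Over all genes tested 55.5%, 41.1% and 71.5% were called in that order of lines, and 23.1%, 14.6% and 25.1% were called lower. Timp3, an inhibitor of ADAM17, changed most in the Gtf2i Mutant line. It read 11.27 and 11.22 in Wild-type, 8.41 and 8.55 in the Gtf2i Mutant line, 10.29 and 10.30 in the GTF2iTrap line and 7.63 and 7.52 in HPRTKO, differences from Wild-type of -2.77, -0.95 and -3.67. Rhbdf1, which escorts ADAM17 through the secretory route, was at -1.04, -0.56 and -2.01 in the same order of lines, and the protease gene Adam12 at -0.68, -1.47 and -3.58, all called. Adam9, a related protease gene, was at -0.47 in the Gtf2i Mutant line and -2.07 in HPRTKO, but higher in the GTF2iTrap line, at 0.21 (limma, adjusted p = 0.0276). Adam17 itself was at -0.08 in the Gtf2i Mutant line, where it was not called, at 0.34 in the GTF2iTrap line (adjusted p = 0.00309) and at -0.36 in HPRTKO. The list contains both the proteases and their inhibitor, so its count has no single direction of function.

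The adaptors and the RAS-MAPK cascade changed in both directions. Of the listed genes 10 were analysed here. In the Gtf2i Mutant line 5 were higher and 3 lower, in the GTF2iTrap line 3 and 2, and in HPRTKO 4 and 2, with a median of 0.08 in each. Of all genes tested 55.5%, 41.1% and 71.5% were called in these lines, in either direction. With cyclic loess scaling the counts in the Gtf2i Mutant line became 3 higher and 4 lower and the median -0.02, so no direction is given for this list. The docking protein gene Gab1 was higher by 0.68 in the Gtf2i Mutant line and by 0.95 in HPRTKO. The GTPase gene Nras was higher by 0.58 and 0.34 in those lines, and the kinase gene Braf by 0.47 and 0.77, while Braf was at -0.38 in the GTF2iTrap line (all called). In the GTF2iTrap line Shc1 was at 0.54 and Sos1 at 0.29, both called. Sos1 was also called higher in the Gtf2i Mutant line and HPRTKO, at 0.30 in each, where Shc1 was called lower, at -0.25 and -0.31. Ptpn11, which encodes the phosphatase SHP2, was lower in all lines, at -0.37, -0.32 and -0.80 in the Gtf2i Mutant line, the GTF2iTrap line and HPRTKO.

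The 14 genes of feedback and receptor turnover split between the lines. In the Gtf2i Mutant line 2 were higher and 7 lower, in HPRTKO 2 and 5, and in the GTF2iTrap line 7 and 3. The shares of all genes called in either direction, 55.5%, 71.5% and 41.1%, apply here in that order. Those called lower made up 23.1%, 25.1% and 14.6%. With cyclic loess scaling the counts became 2 and 11, 1 and 10, and 5 and 3. Errfi1, whose product MIG6 inhibits EGFR, read 12.71 and 12.66 in Wild-type, 11.15 and 11.18 in the Gtf2i Mutant line, 11.23 and 11.24 in the GTF2iTrap line and 8.83 and 8.70 in HPRTKO. It was lower in each line than in Wild-type, and so was Dusp5, a nuclear ERK phosphatase, at -2.25, -1.88 and -1.84 in the Gtf2i Mutant line, the GTF2iTrap line and HPRTKO. Dusp4, a related phosphatase, was lower in the Gtf2i Mutant line (-0.93, adjusted p = 3.19e-05), higher in the GTF2iTrap line (1.03, adjusted p = 3.71e-05) and not called in HPRTKO (0.10). Lrig1, which promotes the breakdown of EGFR, was higher in the GTF2iTrap line (0.74) and lower in HPRTKO (-2.22). Spry4, a Sprouty inhibitor, was lower in the Gtf2i Mutant line (-1.93) and in HPRTKO (-0.79). The ubiquitin ligase gene Cblb was lower in the same lines, at -0.46 and -1.17. Neither was called in the GTF2iTrap line (-0.35 and 0.07).

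The response genes of the pathway were lower more often than not. Of 11 genes 10 were lower in the Gtf2i Mutant line, 7 in the GTF2iTrap line and 9 in HPRTKO, with 1, 2 and 1 higher, and their medians were -1.12, -0.52 and -1.61 against 0.03, 0.05 and 0.16 over all genes. The shares of all genes called lower were 23.1%, 14.6% and 25.1% in that order. Egr1, an immediate early transcription factor gene, read 11.49 and 11.46 in Wild-type, 8.47 and 8.51 in the Gtf2i Mutant line, 9.60 and 9.56 in the GTF2iTrap line and 8.27 and 8.19 in HPRTKO. It was highest in Wild-type without overlap and differed from it by -2.99, -1.90 and -3.24 in these lines. Of all genes tested, 77.2%, 73.4% and 85.7% did not overlap with Wild-type in the same order of lines. Plaur, the urokinase receptor gene, was at -2.16, -1.45 and -2.03, and Phlda1 at -1.76, -0.93 and -2.50, all called. The immediate early gene Fos was at -1.71 and -1.67 in the Gtf2i Mutant and GTF2iTrap lines. The largest difference of the list was that of Ier3, an early response gene, at -4.01 in HPRTKO, where the AP-1 gene Fosl1 was at -2.63. Etv5, an ETS factor gene, was higher in all of these lines, by 0.56, 0.35 and 0.55. The feeder markers were lower in the same lines, with the medians given for each comparison above, and their part in these list counts was not tested.

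**Figure D4:**
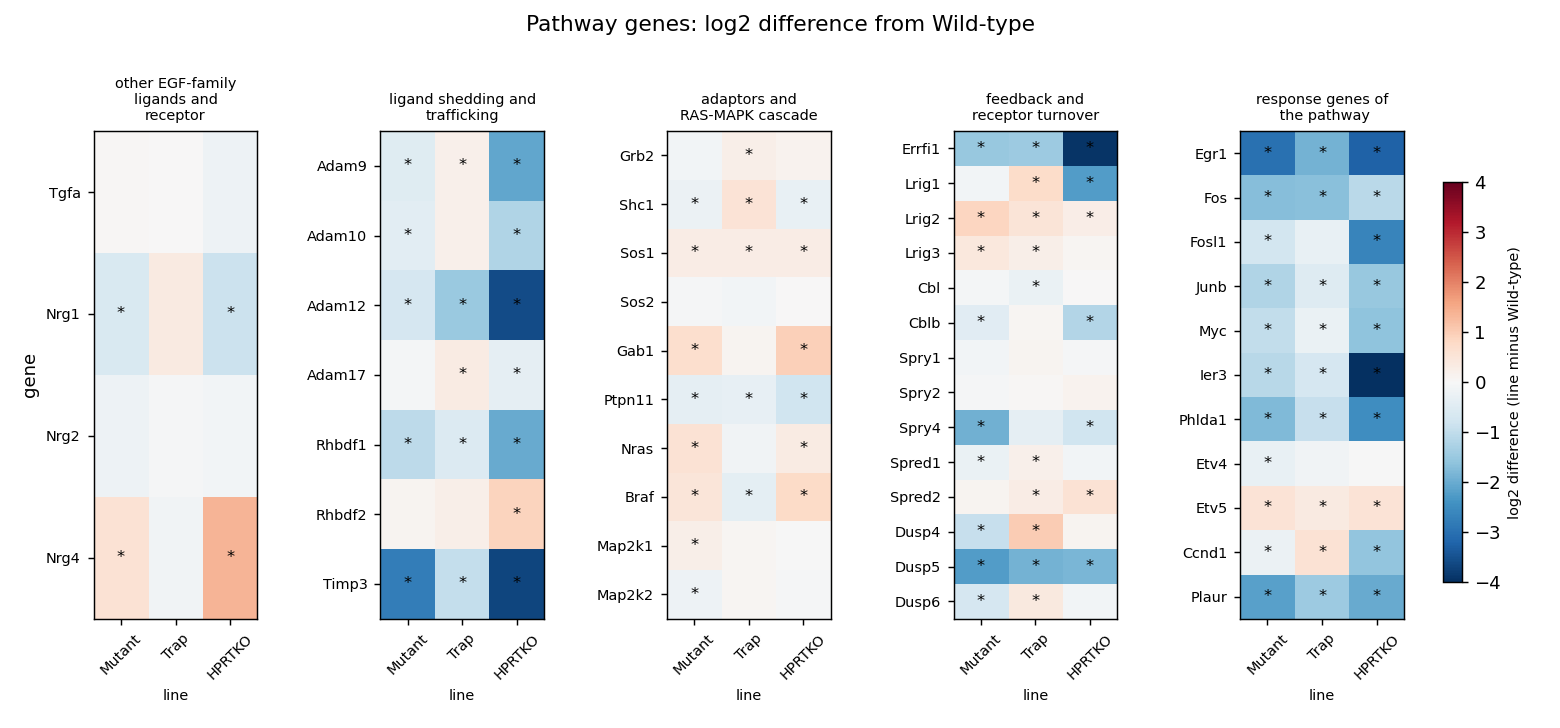
Log2 difference from Wild-type (colour, blue lower and red higher, scale ending at 4 in either direction) of the tested genes of 5 pathway lists in the Gtf2i Mutant line, the GTF2iTrap line and HPRTKO. Asterisks mark calls at adjusted p below 0.05; 10, 7 and 9 of the 11 response genes are lower in these lines, and the adaptors change in both directions.

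The genes most like each member over the 8 arrays were sought among 3280 genes whose group means span at least 1 on the log2 scale. These correlations rest on 4 groups of 2 arrays, with HPRTKO far from the rest in feeder markers, and are descriptions only. For Ereg the nearest were Ckap4 (Pearson r = 0.999), Csf1 (0.998) and Dsel (0.998). For Hbegf they were Lif (0.998), which encodes the cytokine that is also added to the medium, Vcl (0.998) and Rgs3 (0.997). For Egfr they were Thbs1 (0.999), Errfi1 (0.998) and Cdc42ep1 (0.998). Lif averaged 10.28 in Wild-type, 8.04 in the GTF2iTrap line, 7.74 in the Gtf2i Mutant line and 6.83 in HPRTKO. For Erbb2, whose range is narrow, likeness was weaker, with Nts (0.968), Edn1 (0.962) and Mustn1 (0.950). Erbb3 was most like Ddr1 (0.997), Rasl11b (0.992) and Lama1 (0.990), of which Ddr1 averaged 10.08 in Wild-type, 10.55 in HPRTKO, 9.41 in the GTF2iTrap line and 9.47 in the Gtf2i Mutant line.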

How the data were processed

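Total RNA was labelled and hybridised by the submitters. The authors deposited log2 intensities of 45101 probe sets. RMA made them per the submitters' processing notes, in a version not given in the sources used here. RMA normalizes arrays by quantiles, so a shift of most genes would not be visible. No detection calls were used, and the number of arrays limits the precision.

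Probe sets with 1 symbol in the platform annotation (34945; 932 had several and 9160 none) were named, and the brightest by mean over 8 arrays stood for a gene. After the filter 13819 genes were tested. Means of 4 groups were fitted to all arrays with limma 3.58.1 in R 4.3.3 (lmFit, eBayes; 4 residual degrees of freedom), with Benjamini-Hochberg adjustment over all genes calling adjusted p below 0.05. With 2 arrays a side, exact permutation could reach no p under 0.333. The fit was tested on simulated data. The members and lists were chosen with earlier results of these data known. Genes named were all members, up to 4 per pathway list with the largest called differences, up to 3 per marker list with the highest mean, and the 3 most like each member; Tgfa, Adam17, Etv5 and genes repeated across lines fall partly outside this rule and were chosen after their values were seen. Alternatives covered scaling, filter, probe set choice, moderation, arrays in the fit, a replicate block and leaving out arrays.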

Additional observations from a re-analysis of the deposited data

Results flagged for a closer look

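For the 5 tested members, the difference of the Gtf2i Mutant line from Wild-type and that of the GTF2iTrap line from HPRTKO differed from each other, by a test of that difference itself (limma, 69.7% of all genes called). The first minus the second was -8.20 for Ereg (adjusted p = 2.43e-08), from -2.63 and 5.57. It was -3.83 for Hbegf (adjusted p = 3.56e-08), from -2.48 and 1.35, and -3.05 for Egfr (adjusted p = 2.54e-07), from -1.23 and 1.82; averaged over its probe sets Egfr gave -1.01. For Erbb2 it was -0.81 (adjusted p = 0.00723), from -0.61 and 0.20, and for Erbb3 0.44 (adjusted p = 0.0036), from -0.68 and -1.11. The Erbb3 value did not pass with cyclic loess (0.19, adjusted p = 0.0733) or averaged over its probe sets (0.23, adjusted p = 0.0909), so 4 members passed under each. All 16 feeder markers differed in the same test, with a median of -5.02, and their part in these values was not tested. Each value equals the difference of the Gtf2i Mutant line from the GTF2iTrap line plus that of HPRTKO from Wild-type. In that order these were -1.16 and -7.04 for Ereg, -0.29 and -3.55 for Hbegf, and -0.14 and -2.91 for Egfr. They were 0.02 and -0.83 for Erbb2, and -0.03 and 0.47 for Erbb3, so the HPRTKO arrays enter every value.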

How the results depend on the processing

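Of 485 differences of single members recomputed under an alternative, 474 kept their direction and side of the threshold. With the direction kept, 5 lost the threshold and 1 passed it. Another 5 changed sign without a call in either setting, and 0 changed sign with a call. Changing the filter, the moderation or the replicate block, or testing every probe set by itself, left the log2 differences as they were. So did fitting only the groups compared or leaving out the HPRTKO group. Direction could not change under these settings, only the side of the threshold. The losses were Erbb2 in the GTF2iTrap line against Wild-type without either of 2 arrays (given in the report) and the 3 for Erbb3 given there. With every probe set tested by itself, 24564 features entered in place of 13819, and the counts called became 12045 for the Gtf2i Mutant line against Wild-type, 8887 for the GTF2iTrap line against Wild-type, 16490 for HPRTKO against Wild-type, 15482 for the GTF2iTrap line against HPRTKO, 13821 for the Gtf2i Mutant line against HPRTKO, 10790 for the Gtf2i Mutant line against the GTF2iTrap line and 15942 for the difference between both pairs. Cyclic loess lowered the share of calls that were higher from 58.4% to 47.8% in the Gtf2i Mutant line, from 64.6% to 54.2% in the GTF2iTrap line and from 64.9% to 49.9% in HPRTKO, each against Wild-type. It raised that share from 38.9% to 52.5% for the GTF2iTrap line and from 40.7% to 54.6% for the Gtf2i Mutant line against HPRTKO, and lowered it from 61.2% to 48.1% for the difference between both pairs. Replicate numbers did not pair the samples (correlations of deviations -0.28 to 0.17); with the number as a replicate block 5 members were called in each comparison with Wild-type, as without it, and 7248 genes for the Gtf2i Mutant line. Leaving out the HPRTKO arrays, chosen after seeing the data, kept 5 members called in both lines with a mutated Gtf2i. Values near the filter level, such as Ereg in HPRTKO and all of Btc, limit what their size can show.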

Other observations

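Ereg lies on chromosome 5 beside other EGF-family genes and a group of chemokine genes, so its 20 nearest RefSeq genes, 10 on each side, were read as well; this set was chosen after other values of the series were known. Of these 16 were measured and 14 tested. Against Wild-type, 10 were lower and 2 higher in HPRTKO, 7 lower and 4 higher in the Gtf2i Mutant line, and 7 lower and 4 higher in the GTF2iTrap line. Of all genes 71.5%, 55.5% and 41.1% were called in that order, and 25.1%, 23.1% and 14.6% were called lower. The chemokine genes Cxcl5, Ppbp and Cxcl1 had Wild-type means of 13.15, 9.07 and 12.46 and HPRTKO means of 3.66, 3.57 and 6.49. In the Gtf2i Mutant line they differed from Wild-type by -0.34, -0.56 and 0.18, where Ereg differed by -2.63. Other chemokine genes there changed more, Cxcl15 at -1.41 (limma, adjusted p = 0.000265) and Cxcl3 at 1.13 (adjusted p = 0.00029). Epgn, the direct neighbour of Ereg and a ligand of the same family, and Btc were below the filter in all groups. Rassf6 and Parm1 were lower than in Wild-type in every line, at -1.45 and -1.08 in the Gtf2i Mutant line. The feeder markers given in the report were also lowest in HPRTKO, and their part in these values was not tested.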
